A study of Mus musculus with 12 samples.

Results

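The genes described here are 10 transcription factor and early response genes: *Fos*, *Fosb*, *Fosl2*, *Jun*, *Junb*, *Jund*, *Egr1*, *Ier3*, *Ier5* and *Myc*. They were taken by symbol from the table of transcript abundance, where each matched a single row, 10 of 25676 genes in all. All 10 were among the 12278 genes that had enough signal to test (a mean of at least 0.5 over the 12 livers in TPM, transcript abundance per length, scaled to a fixed sum in each library). AP-1 is a dimer of a JUN protein with a FOS, ATF or other JUN protein, and it binds DNA at a short palindrome in promoters and enhancers, where it often sits beside the TEAD factors that YAP1 works with. Most of these genes are immediate early genes: growth factors, cytokines and stress signals switch them on through MAP kinases within minutes and without new protein synthesis, and their messenger RNAs are short-lived. In liver they are known for their rise after injury and partial hepatectomy, and handling of the tissue can raise them too.

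RNA from whole liver of 12 C57BL/6 mice aged 3 to 4 months was sequenced in 4 groups of 3 animals: wild-type (WT) males, WT females, and males and females of the *Yap1* knockout (KO), which carried Foxa3-Cre. *Foxa3* is switched on in the embryonic gut endoderm, which forms hepatocytes and bile duct cells, so endothelial, stellate and blood-derived cells of these livers would still carry *Yap1*. The labels name no Cre-only or floxed control, so the driver and the loss of *Yap1* cannot be told apart. Nothing in the labels gives the hour at which a liver was taken, feeding before it, or litter, and p-values measure the spread between these 12 animals. Each value below is from bulk tissue, in which fewer cells of a type and less RNA per cell cannot be told apart.

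*Yap1* was lower in each KO library than in each WT library, averaging 29.5 ± 4.46 TPM (SD, n = 6) in WT against 2.02 ± 0.775 TPM (SD, n = 6) in KO. Hepatocyte markers (*Alb*, *Apoa1*, *Ttr*, *Cps1*, *Ass1* and *Cyp2e1*) summed to between 61370 and 112420 TPM in every library, and the pancreatic genes *Ins2*, *Prss2* and *Cela3b* stayed between 0 and 0.560 TPM. Between 14321 and 15482 genes were above 0 in a library. TPM carry no count of reads, so no counting interval is given. In the labels the library number of WT male replicate 2 stood apart from the run of the others, and the animal numbers of 2 females, KO replicate 1 and WT replicate 3, were much lower than the rest. No label says that either marks a batch, and each holds too few samples for a comparison inside it.

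The stretches of DNA before the gene starts are shown for the 4 genes that the results turn on: *Fos* and *Jun*, which moved together from animal to animal, and *Ier3* and *Ier5*, which separated the genotypes. They come from the RefSeq promoter table on build GRCm38.p6, which held 8 of the 10 genes and had no entry for *Egr1* and *Myc*. Each is read 5′ to 3′ on the strand of its gene and stops before the gene's start in both RefSeq and GENCODE. Capitals mark TGACG (the core of the cyclic AMP response element, CRE), TGACATCA (the CRE-like form known from *Jun*), TATAAA or CCAAT, on either strand, so CCAAT also appears as ATTGG.
Fos, chr12:85473640-85473889, plus strand: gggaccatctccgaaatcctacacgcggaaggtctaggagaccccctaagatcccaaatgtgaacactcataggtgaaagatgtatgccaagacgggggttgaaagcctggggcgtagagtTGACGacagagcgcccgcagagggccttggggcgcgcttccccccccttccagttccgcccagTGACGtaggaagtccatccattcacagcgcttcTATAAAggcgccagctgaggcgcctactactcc
Jun, chr4:95052223-95052472, minus strand: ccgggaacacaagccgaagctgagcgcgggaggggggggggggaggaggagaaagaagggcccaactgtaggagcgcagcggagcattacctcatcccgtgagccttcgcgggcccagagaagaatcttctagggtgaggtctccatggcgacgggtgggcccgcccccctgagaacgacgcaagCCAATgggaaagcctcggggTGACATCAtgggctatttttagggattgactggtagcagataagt
Ier3, chr17:35821463-35821683, plus strand: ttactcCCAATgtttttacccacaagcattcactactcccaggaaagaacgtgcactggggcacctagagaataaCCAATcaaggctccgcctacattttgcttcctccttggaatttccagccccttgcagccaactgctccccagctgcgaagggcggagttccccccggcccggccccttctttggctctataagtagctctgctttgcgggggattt
Ier5, chr1:155099637-155099886, minus strand: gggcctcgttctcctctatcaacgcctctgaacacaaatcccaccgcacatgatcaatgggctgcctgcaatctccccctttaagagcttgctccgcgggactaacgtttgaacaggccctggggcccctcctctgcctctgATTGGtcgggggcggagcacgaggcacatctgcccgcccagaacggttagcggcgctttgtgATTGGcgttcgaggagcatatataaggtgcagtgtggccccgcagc

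Counted from the RefSeq start, TGACG lay at -129 and -66 and TATAAA at -33 of *Fos*, and TGACATCA at -45 and CCAAT at -65 of *Jun*. CCAAT lay at -244 and -175 of *Ier3* and, as ATTGG, at -108 and -46 of *Ier5*. In the 250 bases before the start, TGACG was present for 3 of the 8 genes and in 17.8% of all 32851 promoters of the table, and CCAAT for 4 of the 8 and in 33.9% of all. TGACATCA was present for *Jun* alone among the 8 and in 2.93% of all promoters. TGACG is contained in the full CRE, TGACGTCA, which was in none of the 8 and in 1.55% of all. The AP-1 palindrome TGANTCA was in none of the 8 and in 6.75% of all promoters, and the TEAD element GGAATG was in none of the 8 and in 12.6% of all. The E-box CACGTG (6.02% of all promoters) and the CArG box of serum response factor (1.47% of all) were also in none of the 8. The EGR element GCGNGGGCG was in 2 of the 8, *Fosb* and *Fosl2*, and in 4.70% of all. Each window is set by the RefSeq start. That of *Fosl2*, with its EGR match, lies inside the GENCODE gene, and that of *Jund* ends at 70697738, before its GENCODE start at 70698949. These are matches of letters in a short window, with no measure of binding.

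Two-sided tests on log2(TPM + 1) with limma, with Benjamini-Hochberg adjustment across the 12278 genes, placed all 10 genes higher in KO than in WT with sex as a covariate, past the threshold of 0.05. On these values 50.1% of all tested genes were higher in KO past the same threshold, so the count alone does not set the 10 genes apart. The log2 fold changes of the 10 ranged from 1.58 for *Jund* to 3.50 for *Fos*, with a median of 2.16 beside 0.35 over all tested genes. Rescaling each library by the median ratio of its genes moved the median over all tested genes to -0.04 and the share of them that was higher to 20.9%. The split of all calls went from 6153 higher and 592 lower to 2568 higher and 2293 lower. Of the 10 genes 8 were past the threshold after rescaling, with a median of 1.81 over the 10; *Junb* (1.59, adjusted p = 0.0663) and *Egr1* (2.37, adjusted p = 0.06384) were not.

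Within WT the animals were unlike each other. WT male replicates 1 and 2 lay above the other 4 WT animals for 8 of the 10 genes (*Fos*, *Fosb*, *Fosl2*, *Jun*, *Junb*, *Jund*, *Egr1* and *Myc*), an arrangement found for 10.1% of all tested genes. Both were left out in an alternative chosen after seeing these same values, so larger differences for the 8 genes follow from the choice and add no support. There all 10 genes passed, with log2 fold changes of 1.93 to 5.15, beside 41.7% of all tested genes. *Ier3* and *Ier5* were the only 2 of the 10 with every KO animal above every WT animal, a separation seen for 28.7% of all tested genes.

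**Figure D1:**
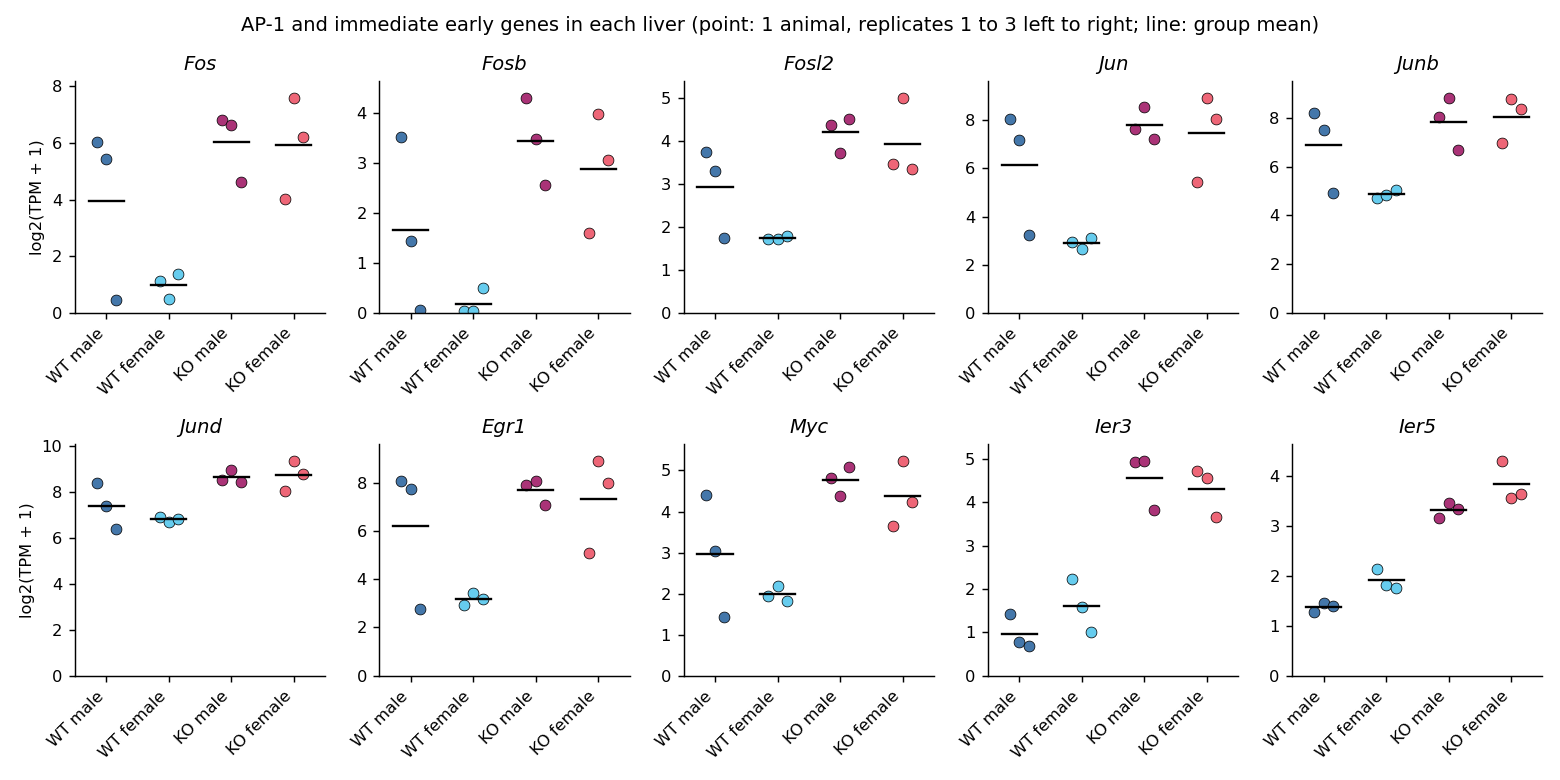
Level of each gene as log2(TPM + 1), with 1 point per animal (replicates 1 to 3 from left to right) and a line at the mean of the 3 animals in each of the 4 groups. WT male replicates 1 and 2 sit among the KO animals for *Fos*, *Jun* and *Egr1*, while *Ier3* and *Ier5* keep all 6 KO animals above all 6 WT animals.

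The FOS proteins cannot pair with each other and need a JUN partner to bind DNA. *Fos* (ENSMUSG00000021250, chromosome 12, 85473890 to 85477273, plus strand of GRCm38), the prototype immediate early gene, was at 64.0, 41.9 and 0.363 TPM in WT males 1 to 3 and 1.20, 0.403 and 1.62 in WT females 1 to 3. It was at 112, 98.7 and 23.5 TPM in KO males and 15.3, 189 and 73.7 in KO females. The 4 low WT animals were all below 2 TPM and every KO animal was above 15, but WT males 1 and 2 lay above KO male 3 and KO female 1. Mean TPM was 4.68-fold higher in KO, and limma's log2 estimate of 3.50 (SE 0.935, adjusted p = 0.006445) was 2.22 with the clock gene *Dbp* as a covariate (adjusted p = 0.0251). That covariate, here and for the genes below, was chosen after seeing the data.

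*Fosb* (ENSMUSG00000003545, chromosome 7, 19302696 to 19310051, minus strand), known for its accumulation under repeated stimulation, was the lowest of the 3. It was at 10.4, 1.70 and 0.0405 TPM in WT males and at most 0.413 in WT females, against 18.7, 10.2 and 4.88 in KO males and 2.02, 14.8 and 7.35 in KO females. WT male 1 alone of the WT animals lay within the KO range. The log2 fold change was 2.23 (SE 0.536, limma adjusted p = 0.003309). With a pseudocount of 0.1 in place of 1 it was 3.89, and 4 WT values were below 0.5 TPM.

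*Fosl2* (ENSMUSG00000029135, chromosome 5, 32135801 to 32157842, plus strand), which encodes FRA2, a longer-lasting FOS relative tied to fibrosis in mice, had the steadiest floor. WT males were at 12.6, 8.89 and 2.35 TPM and the 3 WT females between 2.31 and 2.48, while KO males were at 20.0, 12.2 and 22.1 and KO females at 10.1, 31.1 and 9.15. WT male 1 lay above KO male 2, KO female 1 and KO female 3. On the log2 scale KO exceeded WT by 1.73 (SE 0.360, limma adjusted p = 0.001265), and by 1.09 with *Dbp* as a covariate (adjusted p = 0.0001467).

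JUN proteins can pair with themselves as well as with FOS and ATF proteins. *Jun* (ENSMUSG00000052684, chromosome 4, 95049034 to 95052222, minus strand), a target of JNK signalling that sustains its own promoter, was at 261, 145 and 8.35 TPM in WT males and 6.78, 5.35 and 7.71 in WT females. In KO males it was at 199, 368 and 147 TPM and in KO females at 42.0, 477 and 259. The 4 low WT animals stayed below 9 TPM, KO female 1 was the lowest KO animal, and WT male 1 exceeded 4 of the 6 KO animals. Limma's log2 estimate of 3.09 (SE 0.824, adjusted p = 0.006361) was 4.55 without WT males 1 and 2 and 2.005 with *Dbp* as a covariate (adjusted p = 0.02649).

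*Junb* (ENSMUSG00000052837, chromosome 8, 84974484 to 84978718, minus strand), which can restrain growth driven by JUN, was at 295, 182 and 29.6 TPM in WT males and between 25.6 and 32.0 in WT females. KO males were at 258, 446 and 103 and KO females at 124, 431 and 329.9. WT males 1 and 2 again lay within the KO range, above KO male 3 and KO female 1. The estimated log2 fold change was 2.05 (SE 0.589, limma adjusted p = 0.009725).

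*Jund* (ENSMUSG00000071076, chromosome 8, 70698949 to 70700616, plus strand), the JUN protein that resting cells make most steadily, was also the member of both families with the highest floor. WT males were at 338, 169 and 84.0 TPM and WT females at 120.05, 103 and 113, against 374, 503 and 344 in KO males and 264, 656 and 436 in KO females. Only WT male 1 reached the KO range, and it lay above KO female 1 alone. Its log2 fold change was 1.58 (SE 0.299, limma adjusted p = 0.0006382). On the opposite strand, *Jun* shares 689 bases with *Junos*, *Jund* 919 bases with *Gm11175*, and *Junb* 351 bases with the protein coding gene *Prdx2*, which reached 141 TPM. Use of strand in the counting is not given in the sources used here, so reads from these pairs cannot be told apart.

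**Figure D2:**
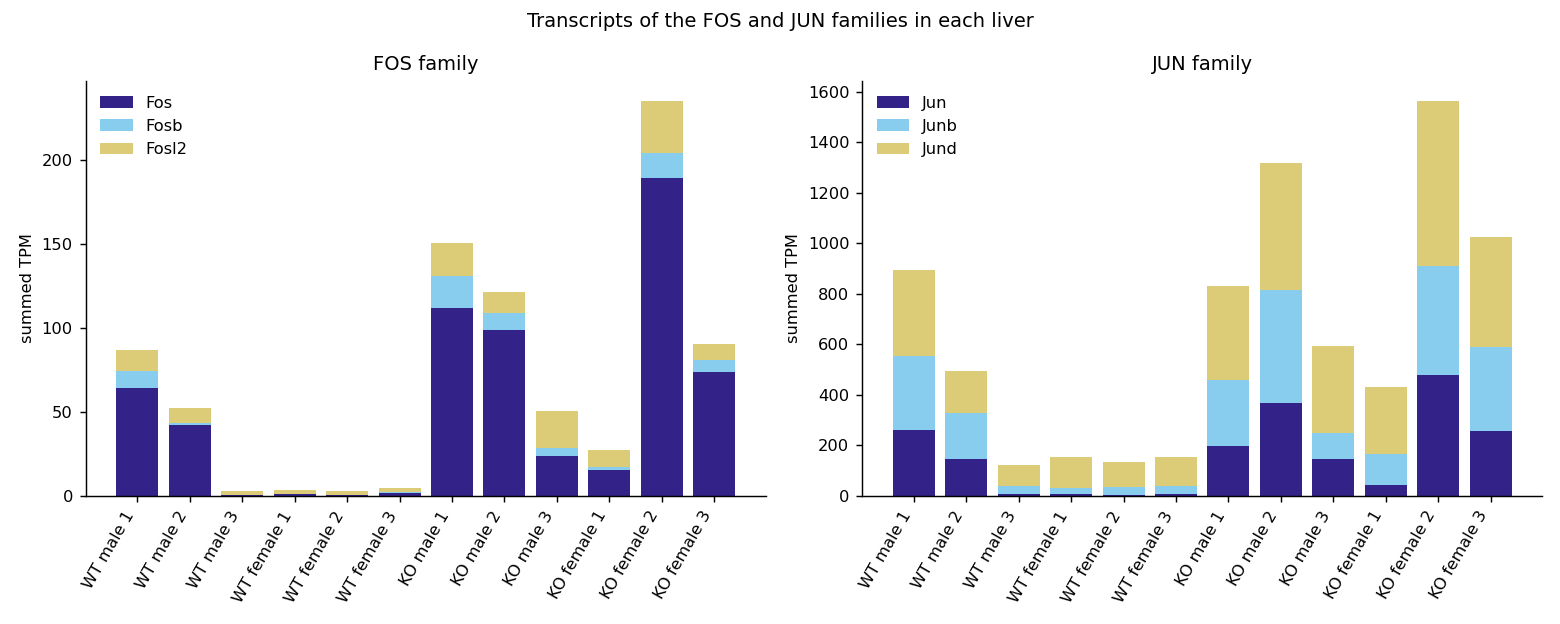
Summed TPM of the FOS family (left) and JUN family (right) in each of the 12 livers, stacked by gene, with bars starting at 0. The sums run from 2.75 to 86.9 TPM (FOS) and 122 to 893 TPM (JUN) in WT, and from 27.4 to 235 and 430.1 to 1565 TPM in KO.

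The make-up of both families differed between the 4 low WT animals and the other livers. In the 4 low WT animals the FOS family summed to between 2.75 and 4.51 TPM and *Fosl2* made up 55.0% to 85.4% of it. In WT males 1 and 2 the sums were 86.9 and 52.4 TPM and *Fos* made up 73.6% and 79.8%, close to the 74.3% to 81.7% in 4 of the KO animals. KO male 3 and KO female 1, with the smallest FOS sums of the KO animals, kept 43.7% and 36.8% *Fosl2*. *Jund* made up 68.9% to 78.8% of JUN family transcripts in the low WT animals, 37.8% and 34.1% in WT males 1 and 2, and 38.2% to 61.3% in KO. *Jun* was 3.94% to 6.85% of the family in the low WT animals, 29.2% in both WT males 1 and 2, and 9.78% to 30.5% in KO. These shares are descriptions, and no test was run on them.

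*Egr1* (ENSMUSG00000038418, chromosome 18, 34859823 to 34864984, plus strand) encodes a zinc finger factor that MAP kinase and serum response factor switch on. It was at 269, 212 and 5.75 TPM in WT males and 6.70, 9.82 and 8.16 in WT females, and at 241, 269.6 and 135 in KO males and 33.2, 475 and 254 in KO females. WT male 1 was higher than 4 of the 6 KO animals, and the 4 low WT animals were all below 10 TPM. The log2 fold change was 2.82 (SE 0.890, limma adjusted p = 0.01625), 4.40 without WT males 1 and 2, and 1.58 with *Dbp* as a covariate, which ended the call (adjusted p = 0.07368).

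*Myc* (ENSMUSG00000022346, chromosome 15, 61985391 to 61990374, plus strand) drives ribosome production and cell growth. WT males were at 20.2, 7.23 and 1.69 TPM and WT females at 2.82, 3.58 and 2.56, while KO males were at 27.3, 19.9 and 33.2 and KO females at 11.5, 36.6 and 17.9. WT male 1 overlapped the KO animals, and WT male 2 lay below all of them but above the other 4 WT animals. The log2 fold change was 2.10 (SE 0.405, limma adjusted p = 0.0007332), and 1.68 after rescaling (adjusted p = 0.007988).

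*Ier3* (ENSMUSG00000003541, chromosome 17, 35821684 to 35822923, plus strand), a stress-induced regulator of cell survival and ERK signalling, had a different pattern. It was at 1.69, 0.720 and 0.609 TPM in WT males and 3.69, 2.001 and 1.00 in WT females, and at 29.3, 30.0 and 13.1 in KO males and 25.4, 22.7 and 11.7 in KO females. WT males 1 and 2 were not high for this gene, and the lowest KO animal was above the highest WT animal. Mean TPM was 13.6-fold higher in KO, and the log2 fold change was 3.16 (SE 0.293, limma adjusted p = 1.576e-06).

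*Ier5* (ENSMUSG00000056708, chromosome 1, 155096361 to 155099636, minus strand), an early response protein known to act on heat shock factor HSF1, varied least. WT males were at 1.42, 1.74 and 1.64 TPM and WT females at 3.43, 2.53 and 2.41, against 7.92, 10.004 and 9.21 in KO males and 18.8, 10.8 and 11.6 in KO females. The genotypes did not overlap in either sex, and WT male 1 was the lowest of all 12 animals. Mean TPM was 5.19-fold higher in KO, and limma put the log2 fold change at 1.94 (SE 0.138, adjusted p = 1.403e-07). Across rescaling, another pseudocount, no filter, each covariate tried, each animal left out and WT males 1 and 2 left out together, the log2 fold change stayed between 1.57 and 2.33 for *Ier5* and between 2.81 and 3.84 for *Ier3*, and both stayed past the threshold.

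**Figure D3:**
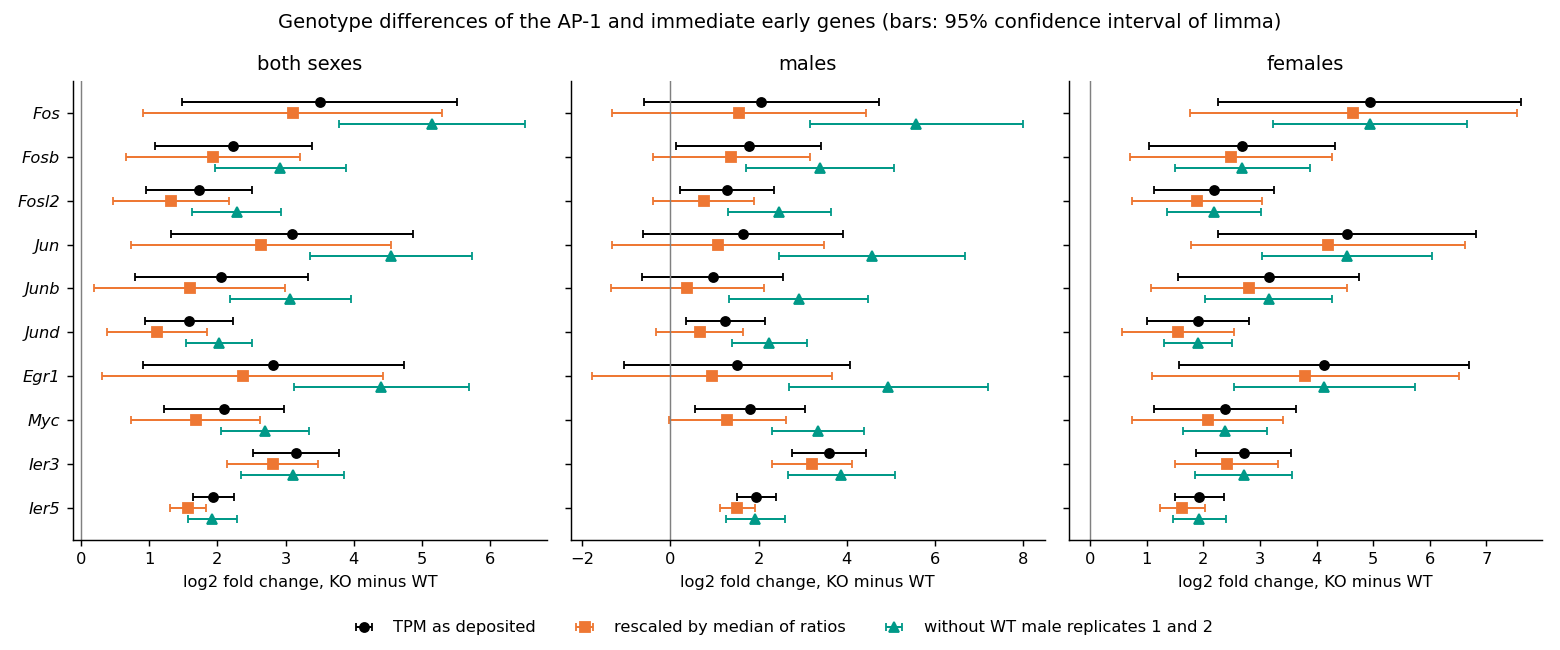
Log2 fold change, KO minus WT, of each gene in both sexes, in males and in females, with bars for limma's 95% confidence interval, for TPM as deposited, after rescaling, and without WT male replicates 1 and 2. In males the intervals of *Fos*, *Jun*, *Junb* and *Egr1* on the TPM as deposited cross 0, and the intervals of *Ier3* and *Ier5* lie above 0 in each panel.

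In females all 10 genes were higher in KO past the threshold, before and after rescaling, with 29.1% and 15.2% of all tested genes. The log2 fold changes ran from 1.91 for *Jund* (limma adjusted p = 0.003511) to 4.94 for *Fos* (adjusted p = 0.008135). For each of the 10 genes every KO female lay above every WT female, as did 43.5% of all tested genes. With *Dbp* as a covariate, an alternative chosen after seeing the data, 3 of the 10 stayed past the threshold in females, beside 20.5% of all tested genes: *Fosl2* (adjusted p = 0.01791), *Ier3* (0.002928) and *Ier5* (0.0001649). Without KO female replicate 2, 8 of the 10 passed, and *Fosb* (adjusted p = 0.0624) and *Egr1* (0.06493) did not; *Egr1* also lost its call without WT female 1 (0.05052) or KO female 3 (0.05696). With 1 animal left out, 21.8% to 32.2% of all tested genes were higher in KO females.

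In males 5 of the 10 genes were higher in KO past the threshold (*Fosl2*, *Jund*, *Ier3*, *Ier5* and *Myc*), beside 43.3% of all tested genes. After rescaling *Ier3* (log2 fold change 3.21) and *Ier5* (1.52) passed, 2 of the 10 beside 13.9%. For *Jund*, *Ier3* and *Ier5* every KO male lay above every WT male, as for 50.8% of all tested genes. The estimates for *Fos* (2.06, 95% interval -0.61 to 4.73), *Jun* (1.65, -0.63 to 3.92), *Junb* (0.95, -0.64 to 2.55) and *Egr1* (1.51, -1.06 to 4.07) were wide. Without WT males 1 and 2 all 10 passed, beside 21.2% of all tested genes, and *Fos* was at 5.58 (limma adjusted p = 0.00454). These 2 animals were left out because they were high for 8 of the genes, so the larger count follows from that choice. The fit also sets the 3 KO males against WT male 3 alone and assumes that it varies like the other groups. With *Dbp* as a covariate 6 of the 10 passed in males, beside 46.2% of all tested genes: the same 5 and *Fosb* (adjusted p = 0.04689). The count in males was 4 with a pseudocount of 0.1 and 4 with a covariate for the 2 females with low animal numbers, *Fosl2* being lost in both. Of the 12278 tested genes, 5392 and 5171 were higher in KO males in these fits. The count of the 10 genes in males was 2 without WT male 3 or without KO male 3, 3 without WT male 2 or without KO male 1, and 6 without WT male 1. With 1 animal left out, the call of *Fosl2* in males (adjusted p = 0.04934 with all animals) was lost in 9 of the 12 fits, that of *Jund* in 4 and that of *Myc* in 3. Some of the 9 left out a female, which can move a male call because all 4 groups share an estimate of the spread. In them the *Fosl2* estimate in males stayed at 1.28, with limma adjusted p-values of 0.05064 to 0.06281. Over those 12 fits 33.4% to 43.3% of all tested genes were higher in KO males.

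The difference between the sexes in the genotype effect, male minus female, was past the threshold for 0 of the 10 genes with limma, beside 0.912% of all tested genes, and 0 were at an unadjusted p under 0.05, beside 8.85%. The estimates were wide, as for *Jun* (-2.89, 95% interval -6.11 to 0.33) and *Fos* (-2.88, -6.65 to 0.90), and narrow for *Ier5* (0.02, -0.60 to 0.64). Between WT males and WT females 0 of the 10 passed, beside 5.74% of all tested genes, and 6 were at an unadjusted p under 0.05, beside 25.6%, with *Jun* the largest (log2 male minus female 3.23, limma adjusted p = 0.08922). Without WT male 3, which was low, the WT males that remained were replicates 1 and 2, and 7 of the 10 passed, beside 13.8% of all tested genes. Between KO males and KO females 0 of the 10 passed, beside 0.0814% of all tested genes, and *Ier5* alone was at an unadjusted p under 0.05, beside 5.33% of all (-0.52, adjusted p = 0.8587).

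**Figure D4:**
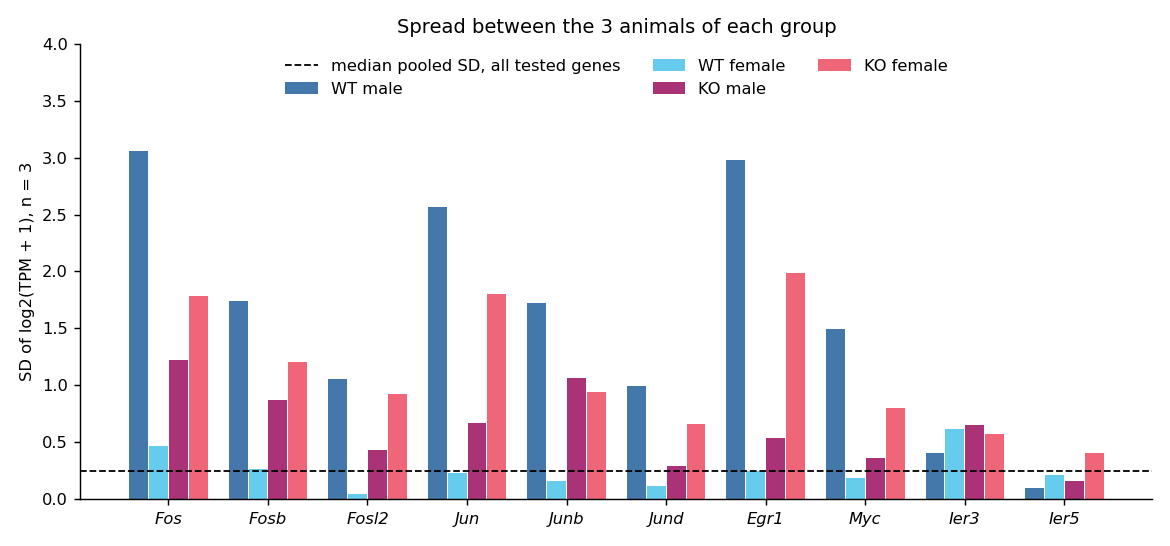
SD of log2(TPM + 1) over the 3 animals of each group for each gene, as bars from 0, with a dashed line at the median pooled SD of all tested genes, 0.246. The WT male bars are the tallest for 8 genes, the WT female bars lie near or below the line except for *Fos* and *Ier3*, and *Ier5* stays low apart from KO females.

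Few genes in the table varied as much between animals of 1 group. By pooled SD within the 4 groups, *Fos* (1.89) was the third, *Egr1* (1.81) the 6th and *Jun* (1.61) the 11th of the 12278 tested genes. Of the 10 genes, 9 were among the 5% with the largest spread and 6 among the top 1%, and *Ier5* was at rank 6160 (0.245). The median SD of the 10 genes was 1.61 in WT males, 0.218 in WT females, 0.591 in KO males and 0.932 in KO females, beside 0.221, 0.161, 0.243 and 0.207 over all tested genes. Among KO animals, KO female 2 had the highest level of 6 genes (*Fos*, *Fosl2*, *Jun*, *Jund*, *Egr1* and *Myc*), and KO female 1 had the lowest level of 6 (*Fos*, *Fosb*, *Jun*, *Jund*, *Egr1* and *Myc*).

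The genes whose deviations from the group means were most like those of *Fos* over the 12 animals were *Btg2* (Pearson's r 0.975), *Gdf15* (0.975), *Ier2* (0.971), *Jun* (0.964) and *Egr1* (0.961). For *Jun* they were *Zfp36* (0.983), *Egr1* (0.981), *Gdf15* (0.971), *Dusp1* (0.970) and *Btg2* (0.967), and for *Myc* they were *Pdk4* (0.980), *Usp6nl* (0.953), *Arhgap32* (0.952), *Tnfaip3* (0.948) and *Slc17a9* (0.948). Over the 9 animals other than WT males, r for these pairs ran from 0.810 (*Myc* with *Arhgap32*) to 0.986 (*Jun* with *Zfp36*). It was 0.903 for *Fos* with *Jun* and 0.976 for *Myc* with *Pdk4*. *Ier5* went with none of the AP-1 genes in this measure (r of -0.44 with *Fos* and -0.48 with *Jun*), and *Ier3* had r of 0.299 with *Fos*. All of these are descriptions over points that share their library, with no test.

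Levels of the clock genes *Dbp* and *Arntl* set the same WT animals apart. *Dbp*, a clock output gene that peaks at a fixed time of day in liver, was at 0.745, 1.15 and 206 TPM in WT males and 189, 213 and 175 in WT females, so the 4 WT animals with low *Fos* were those with high *Dbp*. In KO males it was at 1.91, 46.0 and 1.31 TPM and in KO females at 10.6, 0.960 and 33.4. *Arntl*, the core clock gene that peaks in the opposite phase, was at 15.5, 14.2 and 0.446 TPM in WT males, 0.439, 0.458 and 1.03 in WT females, and 5.41 to 23.6 in KO. Within KO, *Fos* was at 189, 23.5, 112, 15.3, 73.7 and 98.7 TPM in the 6 animals taken from the lowest *Dbp* to the highest (KO female 2, KO male 3, KO male 1, KO female 1, KO female 3 and KO male 2). The animal with the lowest *Dbp* thus had the highest *Fos*, and the rest followed no single order. Of the 16 clock genes tested, 4 were higher and 7 lower in both WT males 1 and 2 than in the other 4 WT animals, beside 10.1% higher and 29.1% lower of all tested genes. Across genotypes *Arntl* was higher in KO (log2 fold change 2.03, limma adjusted p = 0.01171) and 4 clock genes were lower, among them *Ciart* (-1.89), *Per2* (-1.06) and *Bhlhe41* (-1.05); after rescaling 0 were higher and 8 were lower. Of all tested genes 50.1% were higher and 4.82% lower in KO, and 20.9% and 18.7% after rescaling.

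With *Dbp* as a covariate in the comparison over both sexes, 9 of the 10 genes were higher in KO past the threshold, beside 52.2% of all tested genes. Their median log2 fold change was 1.60, and *Ier3* (3.19) and *Ier5* (1.98) stood about where they were without it. In females *Dbp* did not overlap between the genotypes, so there the covariate and the genotype cannot be told apart. Over both sexes only WT males 1 and 2 of the WT animals had *Dbp* as low as the KO animals. The covariate and the genotype are therefore hard to tell apart over both sexes as well. The hour of collection was not tested, since no label gives it.

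**Figure D5:**
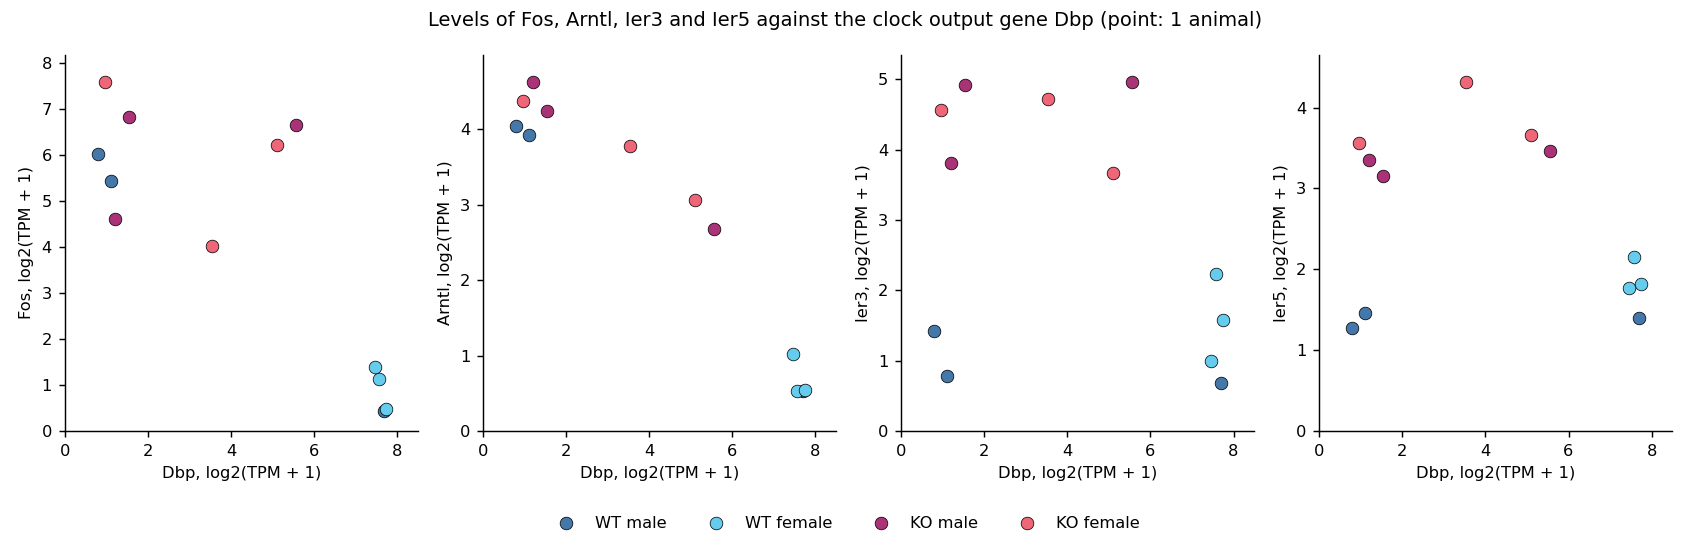
Levels of *Fos*, *Arntl*, *Ier3* and *Ier5* against *Dbp*, all as log2(TPM + 1), with 1 point per animal colored by group. The 4 WT animals at the right, with 175 to 213 TPM of *Dbp*, are low in *Fos* and *Arntl*, WT males 1 and 2 lie at the left with the KO animals for those genes, and *Ier3* and *Ier5* are low in WT at both ends.

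Some heat shock genes set the same WT animals apart. Both WT males 1 and 2 lay above the other 4 WT animals for 7 of 8 heat shock genes, beside 10.1% of all tested genes. The margin was small for some of them, as for *Dnaja1*, at 78.75 TPM in WT male 2 and 78.5 in WT female 2. The chaperone *Hsph1* was at 62.5, 58.5 and 13.5 TPM in WT males and 8.85 to 23.4 in WT females, and reached 41.1 in KO male 3 against 6.43 to 19.2 in the other KO animals. *Hsp90aa1* was at 237 and 278 TPM in WT males 1 and 2 and at 229.9 in KO male 3, beside 56.5 to 128 in all others. By genotype 0 of the 8 heat shock genes were higher and 1 was lower, *Dnaja1* (log2 fold change -0.63, limma adjusted p = 0.005252), and after rescaling 0 were higher and 3 lower. Of all tested genes 50.1% were higher and 4.82% lower, and 20.9% and 18.7% after rescaling. The part of temperature or handling in the AP-1 values was not tested.

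The other AP-1 subunits had a smaller median difference. Of 9 tested (genes of ATF, BATF, MAF and JDP proteins, which can join the dimer), 7 were higher in KO and 0 lower, beside 50.1% higher and 4.82% lower of all tested genes, and the median log2 fold change was 0.71. After rescaling 3 were higher, beside 20.9% higher and 18.7% lower of all tested genes; these 4 shares are the background for each list below. *Atf3*, a stress-induced partner of JUN, had a log2 fold change of 2.43 (limma adjusted p = 0.02158, and 0.08352 after rescaling), with WT male 1 at 68.3 TPM and KO female 2 at 137. *Batf3* (1.00, adjusted p = 0.003216) and *Jdp2* (0.98, adjusted p = 0.002998), a repressor of AP-1, were low, at 2.76 ± 1.45 and 2.86 ± 1.33 TPM (SD, n = 6) in KO.

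Of 28 other immediate early genes tested, 19 were higher in KO and 0 lower, and the median log2 fold change was 1.13, and 10 were higher after rescaling. For 18 of the 28 both WT males 1 and 2 lay above the other 4 WT animals, beside 10.1% of all tested genes. *Klf6*, a zinc finger factor induced by injury, separated the genotypes like *Ier3*: it was at 1.80 to 6.61 TPM in WT and 22.1 to 60.9 in KO (log2 fold change 2.86, limma adjusted p = 1.34e-06). *Btg2*, which slows proliferation, was at 281.5 and 193 TPM in WT males 1 and 2, 6.56 to 10.6 in the other WT animals and 68.4 to 484 in KO (2.84, adjusted p = 0.01113). *Socs3*, the feedback inhibitor of STAT3 signalling, was at 7.36 ± 4.88 TPM (SD, n = 6) in WT and 52.1 ± 31.2 (SD, n = 6) in KO, and its log2 fold change was 2.68 (adjusted p = 2.93e-05).

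Upstream of these genes, 20 of 28 genes of the MAP kinase cascades and their ETS and serum response factors were higher and 1 was lower; their median log2 fold change was 0.35, the same as over all genes, and after rescaling 9 were higher and 4 lower. *Map3k1*, a kinase upstream of JNK, was at 3.16 ± 0.700 TPM in WT and 15.3 ± 5.84 in KO (SD, n = 6; log2 fold change 1.92, limma adjusted p = 2.979e-06). *Mapk3*, which encodes ERK1, was at 30.3 ± 6.75 and 84.8 ± 9.28 TPM (1.48, adjusted p = 1.392e-07), and *Mrtfb*, a cofactor of serum response factor, had a log2 fold change of 1.34. The receptor gene *Egfr* was lower, at 102 ± 59.2 TPM in WT and 48.5 ± 20.3 in KO (SD, n = 6, log2 fold change -0.97, limma adjusted p = 0.0009404). WT males 1 and 2 were at 190 and 161 TPM. The other WT animals, at 53.7 to 93.1, overlapped the KO animals, at 25.5 to 83.5.

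Of 12 feedback inhibitors of the MAP kinases, 6 were higher and 1 was lower, and 2 and 1 after rescaling, shares that do not exceed the 50.1% and 20.9% of all tested genes that were higher. The dual-specificity phosphatases *Dusp5* (log2 fold change 1.80), *Dusp1* (1.74) and *Dusp10* (1.50) were higher, while *Spry4*, which dampens receptor signalling to RAS, was lower (-1.08, limma adjusted p = 0.000908). *Dusp1* lost its call after rescaling (adjusted p = 0.06888). Of the 2 EGR corepressors *Nab1* was higher (0.57, adjusted p = 0.002712), which rescaling ended (0.12, adjusted p = 0.537).

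Of 15 known targets of AP-1 tested, 14 were higher in KO and 0 lower, beside 50.1% of all tested genes higher, and the median log2 fold change was 1.93. After rescaling 13 were higher, beside 20.9%. *Sprr1a*, a cornified envelope protein gene, was between 0 and 0.117 TPM in WT and 51.8 to 95.1 in KO (log2 fold change 6.08). *Spp1*, which encodes osteopontin, was at 33.8 ± 11.2 TPM in WT and 492 ± 195 in KO (SD, n = 6; 3.76), and *Timp1*, an inhibitor of matrix proteases, was at 0.364 ± 0.249 and 11.9 ± 4.68 TPM (3.20). Both WT males 1 and 2 exceeded the other WT animals for 3 of the 15 (*Timp1*, *Mmp9* and *Krt18*), beside 10.1% of all tested genes. In those males *Timp1* reached 0.719 TPM, against at least 8.76 in KO.

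Of 11 partners and relatives of *Myc* 3 were higher (*Mycl*, *Mxd3* and *Mnt*, with log2 fold changes of 0.81, 0.64 and 0.61) and 1 was lower, *Mlxipl* (-0.63), the carbohydrate response factor of hepatocytes. After rescaling 1 was higher and 3 lower. Of 16 known MYC targets 4 were higher, led by the lactate dehydrogenase gene *Ldha* (0.69), *Eif4a1* (0.49) and *Ncl* (0.42), and 2 were lower, *Tert* (-0.60) and the polyamine enzyme gene *Odc1* (-0.53), beside 50.1% higher and 4.82% lower of all tested genes. After rescaling 0 of the 16 were higher and 5 were lower, beside 20.9% and 18.7%.

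Markers of other cell types moved with genotype as well. All 7 macrophage markers were higher in KO, before and after rescaling, and their summed level was 80.7 to 276 TPM in WT and 509 to 1035 in KO, with no overlap. In both WT males 1 and 2, 0 of the 7 were above and 1 was below the other 4 WT animals, beside 10.1% and 29.1% of all tested genes. Of 6 stellate cell and myofibroblast markers 3 were higher (2 higher and 1 lower after rescaling), led by *Col1a1* (log2 fold change 4.01), with sums of 16.5 to 32.1 TPM in WT and 48.7 to 117 in KO. Of 4 bile duct markers tested *Spp1* and *Sox9* were higher and *Epcam* was lower, and the sum was 27.7 to 58.5 TPM in WT and, mostly from *Spp1*, 252 to 713 in KO.

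Of 4 neutrophil markers 3 were higher (0 after rescaling), with sums of 0 to 18.5 TPM in WT and 9.69 to 43.2 in KO, and the defining genes *Ly6g* and *Mpo* stayed at or below 0.199 and 0.210 TPM. Endothelial markers were mixed, with 1 of 6 higher and 1 lower (0 and 2 after rescaling) and sums of 42.4 to 66.7 TPM in WT and 27.3 to 107 in KO, and 0 of 4 T and B cell markers changed, with sums of 1.62 to 6.05 TPM in WT and 1.92 to 5.42 in KO. *Fabp2*, the only gene of the pancreas and intestine list that could be tested, was lower (-1.44), and 2 of the 6 hepatocyte markers were lower, *Cyp2e1* (-2.20) and *Ttr* (-1.10), 3 after rescaling. The part of these cells in the AP-1 values was not tested.

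In the authors' deposited table of KO against WT all 10 genes were also higher, and 6 had an FDR p-value printed below 0.05, while 14.9% of the genes with a value there were higher with such an FDR p-value. These were *Ier3*, *Ier5* and *Fos* (each printed as 0), *Myc* (0.01), *Fosb* (0.02) and *Fosl2* (0.03). The authors' deposited table gave *Jun* 0.09, *Jund* 0.14, *Junb* 0.27 and *Egr1* 0.43. Its log2 fold changes were 3.51 for *Ier3*, 2.24 for *Ier5*, 1.67 for *Fos* and 0.43 for *Egr1*.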

How the data were processed

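The authors deposited 1 table with a column of TPM (abundance per transcript length, scaled to a fixed sum) for each of 12 livers, per the file headers, and every column summed to 1000000; 0 per-sample columns went unmatched. The deposited table also held the authors' fold change, log2 fold change and FDR p-value, per the file headers. The submitters' processing notes name edgeR and GRCm38 with no role; the aligner and counter are not given in the sources used here. Groups came from sample titles, and replicate numbers follow deposition order. Gene positions and overlaps came from GENCODE on GRCm38. TPM were analysed as log2(TPM + 1), so fold changes of low genes are understated. The fit used limma 3.58.1 (R 4.3.3, trended empirical Bayes) on the 12278 genes whose mean was 0.5 TPM or more. Genotype was tested over 12 samples with sex as a covariate, and contrasts by sex came from a model of 4 group means; two-sided p-values had Benjamini-Hochberg adjustment over all tested genes and a threshold of 0.05. The fits were tested on simulated data with independent noise and an equal spread in all groups, which the 10 genes did not show. Alternatives were median-of-ratios rescaling (12819 genes), a pseudocount of 0.1, no filter, no sex covariate, a covariate for the 2 females with low animal numbers, each animal left out and, added after seeing the data, WT males 1 and 2 left out together and a *Dbp* covariate. The 10 genes and the 18 lists were chosen with earlier results of these data known. Named genes were the 10, *Yap1*, up to 3 of each pathway list with the largest rise and fall past the threshold, and the 5 genes most like *Fos*, *Jun* and *Myc*; markers could be named freely. Genes named from the sets high in WT males 1 and 2 were chosen after their values were seen.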

Additional observations from a re-analysis of the deposited data

How the results depend on the processing

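Of the 10 genes, the number past the threshold over both sexes was 10 under each animal left out, another pseudocount, no filter, no sex covariate and the covariate for the 2 females with low animal numbers, 8 after rescaling and 9 with *Dbp* as a covariate. In males it was 5, and 2 after rescaling, 3 with no filter on the level, 4 with a pseudocount of 0.1, 4 with the covariate for the 2 females with low animal numbers, 6 with *Dbp* as a covariate, and 10 without WT male replicates 1 and 2 together, 2 animals chosen on these values; leaving out 1 animal gave 2 to 6. In females it was 10, and 3 with *Dbp* as a covariate; leaving out 1 animal gave 8 to 10. Between WT males and females it was 0, and leaving out 1 animal gave 0 to 7, with 7 without WT male replicate 3 alone. The interaction and the sex comparison in KO gave 0 under every alternative run. The cause of the changes with rescaling and with *Dbp* was not tested. With no filter, 17332 genes entered the adjustment in place of 12278. Of these 17332, 6578 were higher in KO past the threshold over both sexes, and 5245 in males. Of the 12278 genes, 6139 were higher over both sexes with a pseudocount of 0.1, 5815 with no sex covariate and 6065 with the covariate for the 2 females. With 1 animal left out, 5714 to 6347 were higher over both sexes. No call of any of the 10 genes changed direction under any alternative. No paired analysis was possible because the labels give animal numbers and no replicate numbers, so the numbers used here follow deposition order and pair nothing. TPM keep no depth, so counting error in the low values, such as *Fosb*, *Ier3* and *Ier5* in WT, could not be given.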
